A study of Rattus norvegicus with 47 samples.

Results

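Livers of vitamin A-supplemented rats were compared with livers of rats on an adequate vitamin A diet, through the 2 arrays titled as supplemented and the 6 titled as adequate in the diet experiment, 8 of the 47 arrays of the series. All rats were female Sprague-Dawley offspring whose mothers were given a purified diet without vitamin A while nursing, so that little of the vitamin reached the pups in milk. From weaning to 8 weeks of age, the supplemented offspring ate that diet with retinol at 100 mg/kg and the adequate offspring ate it with retinol at 4 mg/kg. RNA of 1 liver was hybridised to each single-colour Affymetrix rat array. The protocol text gives n = 4 for the supplemented diet and the design text 2 biological repeats; the 2 arrays are analysed here, and this number limits the precision of every value below.

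Retinol is stored in the liver as retinyl esters and is oxidised in steps to retinoic acid (RA), which binds nuclear receptors that pair with RXR partners and switch on genes through spaced repeats of a short half-site. The same signal switches on its own removal, since RA induces Cyp26a1, the P450 enzyme that hydroxylates RA, and Lrat, the enzyme that esterifies retinol. The liver is therefore known both as the store of vitamin A and as the site where its excess is cleared.

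The promoter of Cyp26a1 is shown because this gene carried the largest rise between the diets and holds a known kind of RA receptor site. In the RefSeq promoter table (rat build GRCr8), the 250 bases before its start, chr1:244883572-244883821 on the plus strand, read as follows, with the half-sites of the spaced repeat in capitals.
Cyp26a1: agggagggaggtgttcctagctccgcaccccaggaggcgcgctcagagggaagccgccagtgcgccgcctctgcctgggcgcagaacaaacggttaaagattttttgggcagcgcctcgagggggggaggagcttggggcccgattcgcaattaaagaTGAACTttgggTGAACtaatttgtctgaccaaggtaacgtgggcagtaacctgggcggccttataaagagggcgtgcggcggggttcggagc
The repeat in Cyp26a1, read on the strand opposite to the gene, is set beside the one in Rarb, read on the gene's own strand; Rarb is an RA receptor gene whose own promoter site is a textbook case. Half-sites are again in capitals.
Cyp26a1 site: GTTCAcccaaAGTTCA
Rarb site: GTTCAccgaaAGTTCA
The Cyp26a1 site lies at chr1:244883730-244883745 and the Rarb site at chr15:11336417-11336432. Counted from the start of its gene, the Cyp26a1 site begins at position -92. The Rarb site begins at position 26, after the start used here. Windows of 250 bases before and 50 bases after each start were searched on both strands for GTTCA and AGTTCA with 5 bases of any kind between them, and for AGGTCA and AGGTCA with the same spacing. The sets of letters differ, so that no site can match both in one alignment. The first was found in 9 of 33469 promoters (0.0269%) and the second in 3 (0.00896%). Neither was found in the windows of Ddx19b, Sult1c3, Cyp3a9, Cyp2c22, Lrat, Dhrs3, Cyp26b1 or Cyp8b1, which says only that these letters are not there. Cyp17a1 is named only.

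Values are log2 signals over the median of their own array, so that 0 is the level of the middle probe set, and levels are not compared between genes. The arrays fall into 2 runs of database identifiers, which the labels do not describe further: 12 diet arrays, both supplemented and adequate replicates 3 to 6 among them, lie in the first, and 8, with adequate replicates 1 and 2, in the second. Adequate replicate 5 stood apart in RNA quality, with 3′ to 5′ log2 differences of 1.37 for GAPDH and 3.16 for actin, against 0.36 and 0.44 for GAPDH and 1.39 and 1.70 for actin in supplemented livers, and 0.30 to 0.47 and 1.25 to 1.90 in the other adequate livers. On adequate replicates 1 and 2 the floor that the lowest probe sets share lay at -3.93, with 1594 and 2086 probe sets at it, and on the first-run arrays of both groups it lay at -5.60 to -5.43, with 71 to 179. Across the probe sets tested between the diets the 2 supplemented arrays correlated at 0.851. In whole-liver RNA, fewer cells of a type and less RNA per cell cannot be told apart.

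Few transcripts passed the test between the diets. With limma over the 20 diet arrays and the run as a covariate, 3 of 27595 probe sets tested passed the threshold, a p under 0.05 after Benjamini-Hochberg adjustment (0.0109%), of which 1 was higher (0.00362%) and 2 were lower (0.00725%) in supplemented livers. Cyp26a1 rose, Cyp17a1 fell, and 1 of 3 probe sets of Ddx19b fell. Without adequate replicate 5 the same 3 probe sets were called. An unadjusted p under 0.05 was reached by 1003 probe sets (3.63%), and both supplemented arrays lay above all 6 adequate arrays for 993 (3.6%) and below them for 752 (2.73%). Against the 4 adequate arrays of the first run alone, the shares were 7.46% above and 4.85% below. A shift of 2-fold would mostly have been missed at this size. In data simulated for this comparison on 27595 probe sets, 100 were changed at each of 3 folds and 129 were called. Recovered were 10% of the probe sets changed 2-fold, 41% of those changed 4-fold and 75% of those changed 16-fold. The adjustment is stricter where fewer probe sets change, so these shares may be too high for data with 3 calls.

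**Figure D1:**
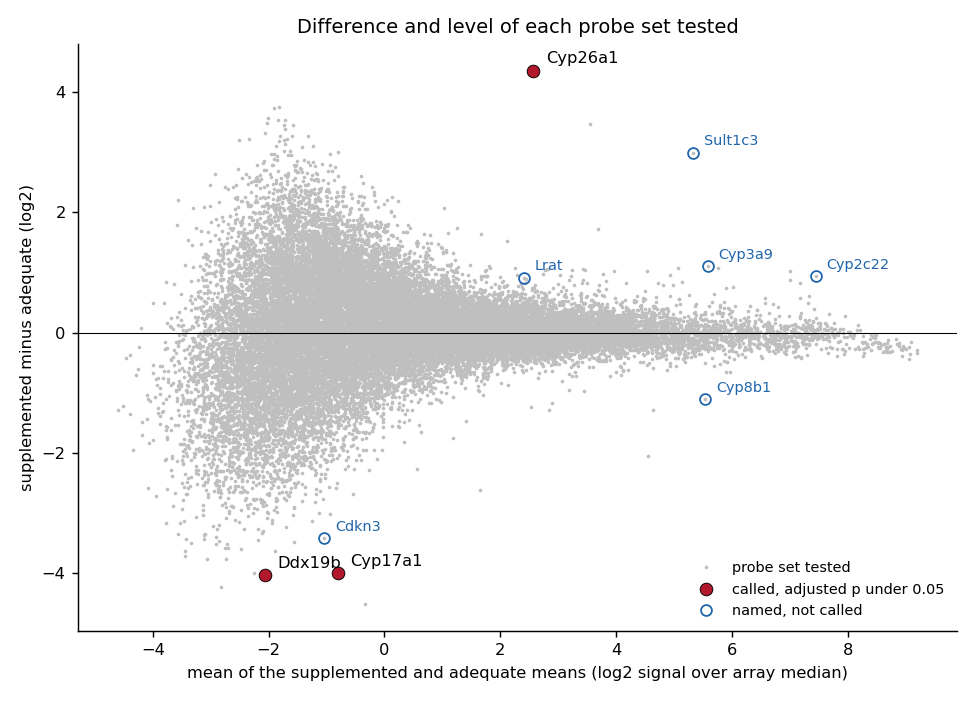
Each grey point is 1 of the 27595 probe sets tested, with the mean of the supplemented and adequate means on the x axis and the limma difference, supplemented minus adequate, on the y axis, both log2. Red points are the 3 called probe sets (Cyp26a1 at 4.36, Cyp17a1 at -4.001 and Ddx19b at -4.04). Open blue circles are Sult1c3, Cyp3a9, Cyp2c22, Cyp8b1, Cdkn3 and Lrat, which were not called. The spread of the grey points is widest at low levels.

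Cyp26a1 was the 1 transcript called higher. Its level was 4.28 and 5.24 in the supplemented livers, against a lowest of 0.08, a median of 0.22 and a highest of 1.26 in the adequate livers. The groups did not overlap, and the adequate livers of the first run, at 0.08 to 0.25, lay closer together than the pair of the second, at 0.41 and 1.26. The difference was 4.36 ± 0.62 (SE, 2 and 6 arrays), a 20.5-fold rise with a 95% interval of 3.10 to 5.61 on the log2 scale (limma adjusted p = 0.000729). Within an array the transcript stood at percentiles 94.5 and 97 of all probe sets in supplemented livers, against 51.7 to 70.6 in adequate livers. Within the first run the rise was 4.60 ± 0.51 in the fit over all its diets (limma adjusted p = 0.000514) and 4.60 ± 0.32 with the 2 supplemented and 4 adequate arrays alone (limma adjusted p = 4.65e-06). Without supplemented replicate 2, the higher of the pair, it was 3.87 and was no longer called (limma adjusted p = 0.136).

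Cyp17a1, the steroid 17-alpha-hydroxylase that leads from progestins to androgens, was lower in supplemented livers. Its level was -3.04 and -2.80 in the supplemented livers, against 0.78, 0.48, 0.35 and 0.76 in the adequate livers of the first run and 3.26 and 2.24 in those of the second. No adequate array came near the supplemented pair, and the adequate group itself was split by run. Cyp17a1 fell by 4.00 ± 0.56 on the log2 scale (16.0-fold, limma adjusted p = 0.000729), with a 95% interval of -5.15 to -2.86. Among all probe sets of an array it stood at percentiles 13.4 and 15.6 in supplemented livers, against 57.0 to 90.1 in adequate livers, and no value was at a floor. The fold is that of the signals, and how much of so low a signal is background cannot be told from these values. Inside the first run the difference was -3.51 ± 0.55 (limma adjusted p = 0.0432), and -3.59 without adequate replicate 5 as well (limma adjusted p = 0.0665). With only the 6 supplemented and adequate arrays of that run, the same -3.51 had an SE of 0.75 and was not called (limma adjusted p = 0.942).

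The third called probe set, 1380012_at, matches Ddx19b, an RNA helicase gene of messenger RNA export. Its level was -4.47 and -3.42 in supplemented livers, against a lowest of -1.0, a median of -0.15 and a highest of 0.46 in adequate livers, so that the groups did not overlap. This signal fell by 4.04 ± 0.65 on the log2 scale (limma adjusted p = 0.00537), to percentiles 2.48 and 10.4 of the array, against 32.7 to 59.2 in adequate livers. The other probe sets of the gene did not share the difference. 1388843_at, the brightest of the gene, differed by 0.16 ± 0.37 and 1381616_at by 0.42 ± 0.97 (limma adjusted p = 1 for each), and the mean over the 3 differed by -1.15 (limma adjusted p = 1). In the first run alone over all diets the difference at 1380012_at was -4.02 ± 0.67 (limma adjusted p = 0.0702). With only the supplemented and adequate arrays of that run, the same -4.02 had an SE of 0.97 (limma adjusted p = 0.997). With the 8 supplemented and adequate arrays of both runs alone it was -3.77 ± 0.80 (limma adjusted p = 0.665). It was called in none of these 3 fits. Without supplemented replicate 1 it was -3.51. The same probe set was as low on 1 array of the RA time course at 10 h (-4.67) and 1 at 16 h (-4.06), while the other arrays of those groups lay at -0.92 to 0.53.

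Around Cyp26a1, some other P450 enzymes tied to retinoids and the conjugating enzyme Sult1c3 had levels above the adequate range without passing the test. Sult1c3, a cytosolic sulfotransferase, had levels of 6.55 and 6.83 in supplemented livers, against a lowest of 2.61, a median of 4.21 and a highest of 4.87 in adequate livers. Both supplemented livers lay above every adequate liver, and the adequate livers were spread widely. The difference was 2.99 ± 0.74 (7.97-fold, limma adjusted p = 0.38). With the 2 supplemented and 4 adequate arrays of the first run alone it was 3.07 ± 0.40 and was called (limma adjusted p = 0.0151). Over all diets of that run the same 3.07 had an SE of 0.73 and was not called (limma adjusted p = 0.73). Of 21 alternatives, Sult1c3 was called in 1. Of the 37 genes tested in its list of conjugating and related enzymes, Sult1c3 was the 1 (2.7%) with both supplemented arrays above all adequate arrays. The share over all genes was 3.57%, and the median difference of the list was 0.04.

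Cyp3a9, a P450 that can hydroxylate RA in the rat, stood at 6.24 and 6.21 in supplemented livers, against 4.38 to 5.87 (median 4.87) in adequate livers, a difference of 1.10 ± 0.34 (limma adjusted p = 1). Cyp2c22, another rat P450 with RA-hydroxylating activity, stood at 8.04 and 8.18 in supplemented livers, against 6.45 to 7.21 (median 6.76) in adequate livers. The groups of both genes were separate, by less than 1 log2 unit at their nearest arrays. The difference for Cyp2c22 was 0.94 ± 0.40 with the run in the fit and 1.26 ± 0.28 in the first run (limma adjusted p = 1 and 0.632). Cyp26b1, the second RA hydroxylase, stood at 0.75 and 2.01 in supplemented livers, against -3.16 to 0.48 (median -0.12) in adequate livers, a difference of 1.79 ± 1.08 (limma adjusted p = 1). Its second probe set differed by 0.93 ± 0.96. There the groups overlapped, with 0.315 and -1.57 in supplemented livers, against -2.82 to 0.065 in adequate livers. Of the 8 genes tested in the list of retinoid-linked P450s, 1 was called higher, and in 4 both supplemented arrays lay above all adequate arrays (50%), against 3.57% of the 13296 genes tested. The median difference of the list was 0.53, against -0.001 over all genes. The list was chosen with earlier results of these data known, so its shares and median are no test of the group. The remaining members, Cyp4f1 (-0.19 ± 0.29), Cyp2c7 (-0.12 ± 0.35), Cyp2s1 (0.12 ± 0.82) and Cyp1a2 (0.004 ± 0.34), lay near 0.

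No storage or transport gene was called. Lrat stood at 2.72 and 3.23 in supplemented livers, against 1.68 to 2.03 (median 1.81) in adequate livers. The supplemented pair lay above the narrow adequate group, and the difference of 0.91 ± 0.52 was not called with the run in the fit (limma adjusted p = 1), nor was 1.14 ± 0.30 in the first run (limma adjusted p = 0.999). Rbp4, the plasma carrier of retinol, stood at 8.15 and 8.27 in supplemented livers, inside the adequate range of 8.02 to 8.92 (-0.35 ± 0.37). Of 18 storage and transport genes tested, 0 were called by limma, 2 had an unadjusted p under 0.05 and the median was -0.23. Those 2 lay at or below the array median: Rbp7, a cellular retinol-binding protein gene (-2.74 ± 1.03), and Stra6, which encodes a retinol transporter (-1.49 ± 0.68).

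The receptors and the enzymes of retinol oxidation showed no called gene. Rarb stood at 4.55 and 4.95 in supplemented livers, against 4.12 to 4.91 in adequate livers, and the groups overlapped (0.24 ± 0.33, interval -0.43 to 0.91). Among 12 receptor and coregulator genes, 0 had a limma unadjusted p under 0.05, and the median was 0.09. Dhrs3, the reductase that returns retinaldehyde to retinol, stood at 4.64 and 4.74 in supplemented livers, against 3.80 to 4.70 in adequate livers (0.14 ± 0.22, interval -0.30 to 0.59). In its list of 22 oxidising and reducing enzymes, 0 were called, 0 had a limma unadjusted p under 0.05, and the median was 0.06. Rdh16, a retinol dehydrogenase gene, had the smallest p of them at a low level (0.13 and -0.22 in supplemented livers, -4.29 to -0.81 in adequate livers, 1.98 ± 1.00). Of 20 genes listed as targets of the RA receptors, Cyp26a1 alone was called, and the median was 0.11.

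**Figure D2:**
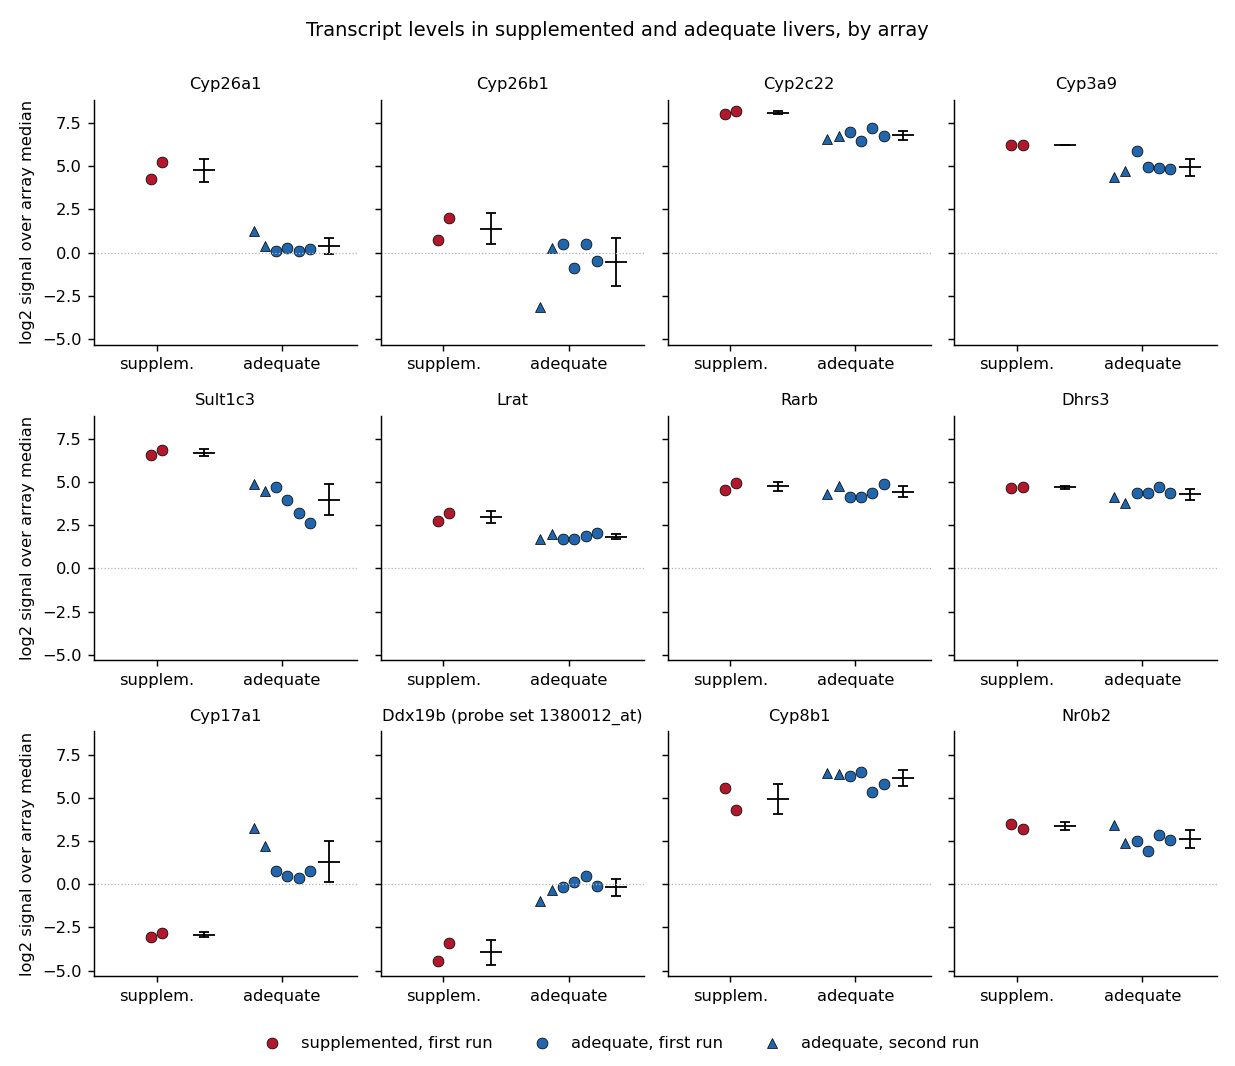
Each point is 1 liver, with the log2 signal over the array median on the y axis, supplemented livers in red on the left and adequate livers in blue on the right of each panel, triangles for the second run, and a bar for the mean and SD of each group. Cyp26a1 (4.28 and 5.24) and Sult1c3 (6.55 and 6.83) lie above all adequate livers, Cyp17a1 (-3.04 and -2.80) and the Ddx19b probe set (-4.47 and -3.42) lie below them, and Rarb and Dhrs3 overlap.

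Steroid and bile acid genes other than Cyp17a1 were not called. Of 34 steroid hormone genes tested, 1 was called lower, 14 had a positive and 20 a negative difference, and the median was -0.09. Hsd17b3, a testosterone-forming dehydrogenase gene, lay at -2.27 and -3.61 in supplemented livers, against -3.08 to -0.34 in adequate livers (-1.70 ± 0.94). Cyp2a2, a steroid-hydroxylating P450 of rat liver, lay at -0.26 and -4.32 in supplemented livers, against -3.68 to 0.45 in adequate livers (-0.50 ± 0.86), and the pair disagreed by more than the groups.

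In bile acid metabolism, 0 of 30 genes were called by limma, 3 had an unadjusted p under 0.05 (against 3.02% of all genes tested) and the median was -0.005. Cyp8b1, the sterol 12-alpha-hydroxylase that sets the cholic acid share, stood at 5.55 and 4.33 in supplemented livers, against 5.35 to 6.53 (median 6.33) in adequate livers. One supplemented liver lay within the adequate range and the other below it (-1.11 ± 0.30, limma adjusted p = 0.853). Nr0b2, the SHP repressor gene of bile acid synthesis, stood at 3.51 and 3.22 in supplemented livers, against 1.94 to 3.44 in adequate livers (0.81 ± 0.37, limma adjusted p = 1). Abcg8, a subunit of the canalicular sterol pump, differed by -2.48 ± 1.01 at levels below the array median, and its partner Abcg5 by -1.12 ± 0.62 (limma adjusted p = 1 for each). Cyp7a1, the rate-limiting enzyme of bile acid synthesis, followed the runs: 1.94 and 1.16 in supplemented livers, against 0.70 to 2.46 in adequate livers of the first run and 5.35 and 5.65 in those of the second. Its difference with the run in the fit was -0.01 ± 0.37.

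Among genes represented by their brightest probe set, 402 of 13296 (3.02%) had a limma unadjusted p under 0.05. A limma unadjusted p under 0.01 was reached by 80, and both supplemented arrays lay above all adequate arrays in 12 of these and below in 41. Over all 13296 genes the balance was the other way, with 475 (3.57%) above and 331 (2.49%) below. The 12 were Cyp26a1, Fam50b, Scn3a, Chmp4b, Tsks, Cuzd1, Sult1c3, Dcn, Tgm3, Cyp3a9, Rtn4 and Glrx. Only 6 of these had both group means above the array median. Rtn4, which encodes a reticulon that shapes the endoplasmic reticulum, stood at 4.30 and 4.21 in supplemented livers, against 2.64 to 3.76 in adequate livers (0.98 ± 0.31), and its second probe set differed by 1.05 ± 0.45. Glrx, a glutaredoxin gene, stood at 4.91 and 4.78 in supplemented livers, against 3.97 to 4.34 in adequate livers (0.69 ± 0.24, and 1.04 ± 0.35 at its second probe set). The separation of the groups was a condition of the choice, the adequate livers of Rtn4 spanned more than the difference itself, and neither gene was called (limma adjusted p = 1 for each). Dcn, the matrix proteoglycan decorin, stood at 1.00 and 2.98 in supplemented livers, against -1.68 to 0.94 in adequate livers (2.07 ± 0.63, limma adjusted p = 1). The difference was 3.06 without supplemented replicate 1 and 1.08 without supplemented replicate 2.

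The 15 largest differences in the other direction were all in transcripts whose supplemented mean lay below the array median: Cyp17a1, Bub1, Klk1c9, Matn1, Ccdc179, Cdkn3, Ppic, Htr1a, RSA-14-44, Adam2, C1h10orf88, Cenpw, Prokr2, Maneal and Map7d2. The cell division genes among them were the spindle checkpoint kinase gene Bub1, the phosphatase gene Cdkn3 and the centromere gene Cenpw. Cdkn3 had levels of -2.32 and -3.17 in supplemented livers, against 0.21 to 1.15 in adequate livers (-3.42 ± 0.70, limma adjusted p = 0.128). Bub1 had levels of -5.21 and -3.74, against -2.08 to 0.15 in adequate livers (-3.76 ± 0.96, limma adjusted p = 0.496). That the groups did not overlap was a condition of the choice. Adequate replicates 1 and 2 could not read below their floor at -3.93, so supplemented levels under that floor lay below both by scale alone. Klk1c9 was such a case, at -4.40 and -5.46 in supplemented livers and -3.93 on adequate replicate 2. Of the 37 cell cycle genes tested 0 were called by limma, 3 had an unadjusted p under 0.05, 17 had a positive and 20 a negative difference, and the median was -0.06. Both supplemented arrays lay above all adequate arrays in 3 of the 37 (8.11%) and below in 3 (8.11%), against 3.57% and 2.49% of all genes tested. Ccnd1, the cyclin D1 gene, stood at 2.78 and 2.03 in supplemented livers, against 2.82 to 3.99 in adequate livers (-1.18 ± 0.42, limma adjusted p = 1). Matn1, a cartilage matrix gene, had -2.84 and -3.46 in supplemented livers, against -0.82 to 0.97 in adequate livers (-3.48 ± 0.76, limma adjusted p = 0.173).

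By a rule chosen after the values were seen, 5428 genes lay more than 1 log2 unit above the median on all 8 arrays. The rule leaves out any gene that is low in 1 group, Cyp26a1 among them, so it describes only genes well above the median on both diets. Of these 0 were called by limma, and 63 (1.16%) had an unadjusted p under 0.05. Sult1c3 had the largest difference among the 15 with an unadjusted p under 0.01. The others on the positive side were Cyp3a9, Rtn4, Glrx and Acsm5, a medium-chain acyl-CoA synthetase gene (3.40 and 3.66 in supplemented livers, 1.54 to 3.52 in adequate livers). On the negative side were 10 genes, among them Cyp8b1, Ccnd1, the mitochondrial carrier gene Slc25a25, the activin subunit gene Inhbe and the autophagy genes Becn1 and Tp53inp2. Becn1 stood at 2.35 and 2.57 in supplemented livers, against 2.84 to 3.24 in adequate livers. Ubd, a ubiquitin-like modifier gene of the interferon response, was on this side through 1 liver, with 1.15 and 6.02 in supplemented livers, against 5.11 to 6.33 in adequate livers.

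Of 36 gene lists, 33 had no called member and 33 had a median difference between -0.3 and 0.3. Lipogenesis genes had a median of -0.13 over 36 genes, with 1 at a limma unadjusted p under 0.05. Fasn, the fatty acid synthase gene, stood at 6.06 and 5.70 in supplemented livers, against 5.04 to 6.73 in adequate livers. Scd, the stearoyl-CoA desaturase gene, stood at 7.02 and 7.27 in supplemented livers, against 4.69 to 7.45 in adequate livers. The supplemented values of both genes lay inside the adequate range. Cholesterol synthesis genes had a median of -0.18 over 22 genes, interferon response genes -0.02 over 43 and oxidative phosphorylation genes -0.09 over 33. The 41 fatty acid oxidation genes had a median of -0.16, with 0 called and 4 at a limma unadjusted p under 0.05, against 3.02% of all genes tested. Cpt2, the carnitine acyltransferase gene of the inner mitochondrial membrane, stood at 2.78 and 2.92 in supplemented livers, against 3.09 to 3.97 in adequate livers (-0.70 ± 0.26). Fgf21, a fasting hormone gene, stood at 0.80 and -3.11 in supplemented livers, against -0.04 to 1.92 in adequate livers (-2.09 ± 0.66), with 1 supplemented liver inside the adequate range and 1 below it.

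No marker of the liver's cell types was called. Hepatocyte genes such as Alb and Apoa1 had a median level of 8.50 and 8.51 in supplemented livers, against 8.37 to 9.15 in adequate livers. Of the 20, 19 had a negative difference, 0 were called by limma and 0 had an unadjusted p under 0.05. Their median was -0.26, or -0.02 after quantile normalization and -0.18 without adequate replicate 5. Kupffer cell genes had a median of -0.09 over 18, endothelial genes 0.01 over 16 and cholangiocyte genes 0.07 over 10. Stellate cell and matrix genes, the cells that hold most retinyl ester, had a median of 0.07 over 31 genes, with 0 called by limma and 2 at an unadjusted p under 0.05, Dcn and Pdgfra (2.43 and 2.90 in supplemented livers, 1.23 to 2.35 in adequate livers). T and NK cell, B cell, neutrophil and erythroid lists had medians of 0.27, -0.11, -0.57 and -0.56 over 18, 12, 5 and 7 genes, with 0 members called. With the supplemented and adequate arrays of the first run alone, the neutrophil median was -0.19 and the erythroid median -0.51. Pancreatic acinar genes had a median of 0.07 over 13, with Cuzd1 at 3.02 ± 1.04 and Cela1 at -1.82 ± 0.64, both uncalled. Whether cell makeup had a part in any result was not tested.

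**Figure D3:**
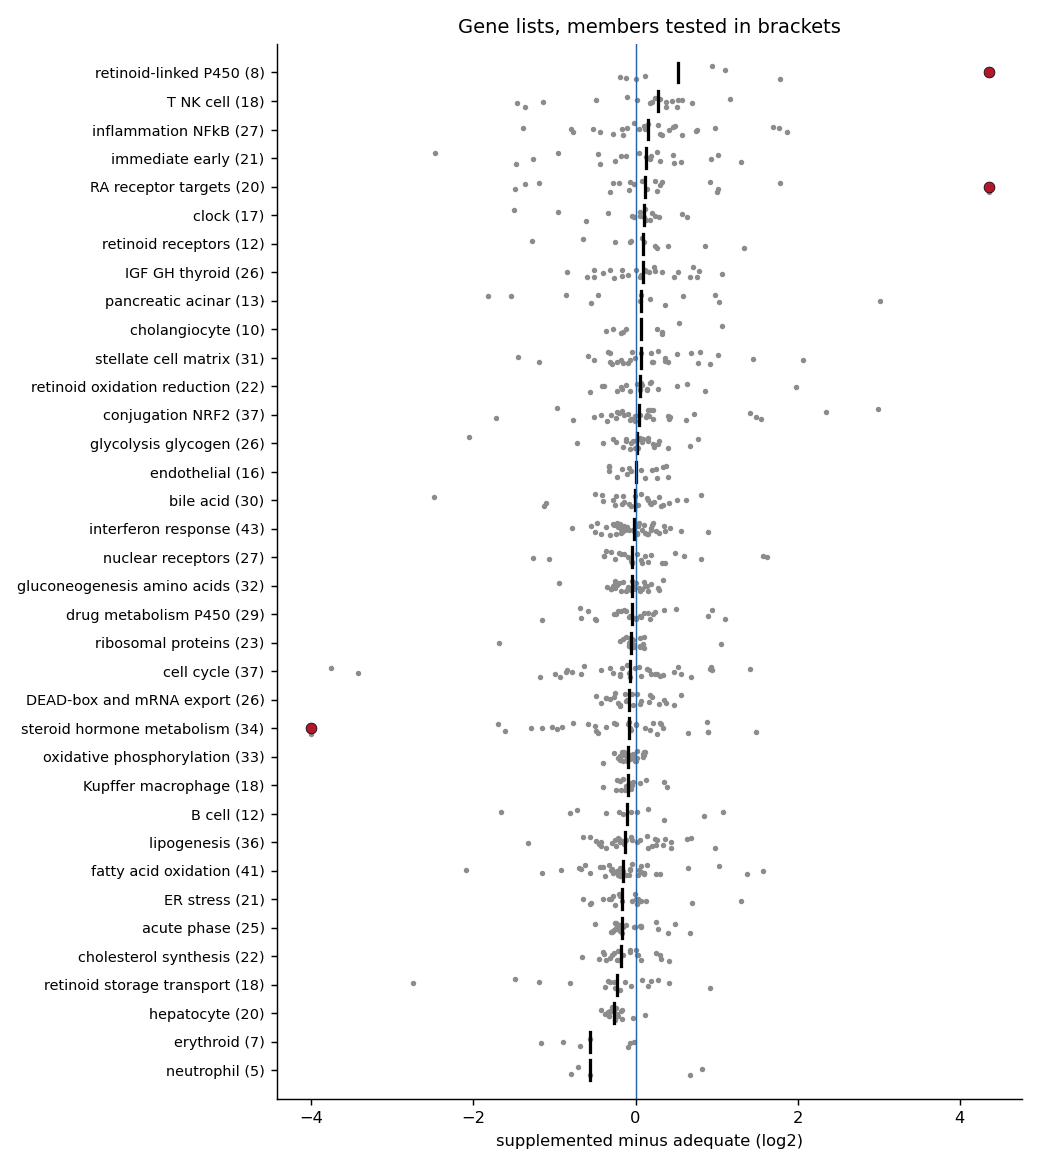
Each row is a gene list with the number of genes tested in brackets, each grey point is a gene at its supplemented minus adequate log2 difference, each black bar is the list's median and red points are called genes. Cyp26a1 at 4.36 stands in 2 lists and Cyp17a1 at -4.001 in 1, and list medians run from -0.57 to 0.53.

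The 2 lower diets place these values on a scale. Cyp26a1 averaged -1.58 ± 1.06 in deficient livers (0 mg/kg, n = 5), -0.15 ± 0.60 in marginal livers (0.4 mg/kg, n = 7), 0.38 ± 0.45 in adequate livers (n = 6) and 4.76 ± 0.68 in supplemented livers (n = 2), all SD. Cyp17a1 averaged 4.99 ± 0.60, 1.72 ± 0.96, 1.31 ± 1.17 and -2.92 ± 0.16 over the same 4 diets in order, so that its lowest group was the supplemented one. Sult1c3 averaged -0.61 ± 1.84, 3.28 ± 1.16, 3.97 ± 0.90 and 6.69 ± 0.19 in that order. In all 3 genes the marginal and adequate groups overlapped, while the supplemented group overlapped none of the others.

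Cyp2c22 averaged 1.91 ± 1.45, 6.33 ± 0.63, 6.78 ± 0.27 and 8.11 ± 0.10 from deficient to supplemented. To test whether a transcript moved differently above the adequate level than below it, the step from adequate to supplemented was set against the step from deficient to adequate, which share the adequate arrays. Of 27595 probe sets 1 was called (0.00362%), and 1513 (5.48%) had a limma unadjusted p under 0.05. It was Cyp2c22, whose upper step was smaller than its lower step by 3.63 ± 0.56 on the log2 scale, written as -3.63 (limma adjusted p = 0.00692). This call was lost without an intensity trend (-3.63, limma adjusted p = 0.256), in the first run alone (-2.12, limma adjusted p = 0.461) and without supplemented replicate 1 (-3.56, limma adjusted p = 0.0699), supplemented replicate 2 (-3.70, limma adjusted p = 0.0579) or adequate replicate 1 (-3.38, limma adjusted p = 0.0522). For Cyp26a1 the step difference was 2.41 ± 0.86 and for Cyp17a1 -0.51 ± 0.79, and neither was called (limma adjusted p = 0.88 and 0.952). Other genes had a negative step difference, as Cyp2c22 did, without being called: Sult1c3 (-1.81 ± 1.03, limma adjusted p = 0.911), Cyp3a9 (-2.25 ± 0.47, limma adjusted p = 0.174), Lrat (-1.97 ± 0.73, limma adjusted p = 0.88), Fasn (-2.78 ± 0.57, limma adjusted p = 0.16) and Scd (-3.22 ± 0.85, limma adjusted p = 0.534).

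**Figure D4:**
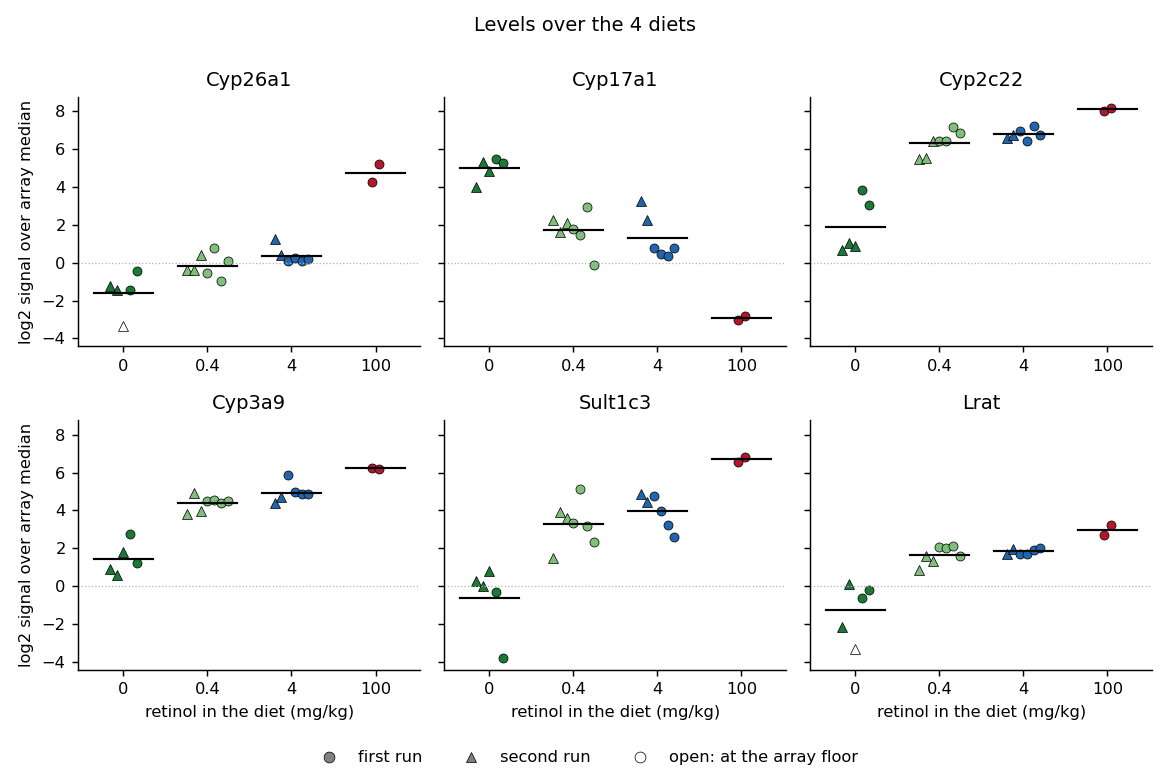
Each point is 1 liver, with retinol in the diet (0, 0.4, 4 and 100 mg/kg) on the x axis, spaced evenly, and the log2 signal over the array median on the y axis; lines are group means, triangles are the second run and open points lie at the array floor. Cyp26a1 reaches 4.76 on average in the supplemented group and Cyp17a1 reaches -2.92, while Cyp2c22 gains most between deficient (1.91) and marginal (6.33) livers.

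The RA time course gave values for the same genes in rats that share no array with the diets: vitamin A-deficient rats of 8 weeks given vehicle (3 arrays, titled untreated at 0 h with vehicle only as the agent) or all-trans-RA (about 100 µg) and killed 3, 6, 10 or 16 h later (3, 3, 4 and 3 arrays). Replicate 2 of these vehicle arrays stood apart, with 7.11 for Cyp2c22, 2.62 for Lrat and 1.49 for Sult1c3, against 2.54 and 2.83, -0.39 and -4.18, and -3.70 and -4.05 on the other vehicle arrays. Each fitted difference below is therefore also given without it. With limma, the mean of the RA groups differed from vehicle at 49 of 28869 probe sets (0.17%), with 24 up (0.0831%) and 25 down (0.0866%) after RA, while an unadjusted p under 0.05 was reached by 7.47%. The split between directions depended on single arrays and on the scaling: there were 52 up and 10 down without vehicle replicate 2, 16 up and 149 down without vehicle replicate 1, 11 up and 3 down without vehicle replicate 3, and 41 up and 175 down without replicate 3 of RA 16 h. Quantile normalization gave 97 up and 39 down, and array weights 152 up and 1064 down. Without an intensity trend in the limma fit 0 were called, with 1747 at an unadjusted p under 0.05 and Cyp26a1 at an adjusted p of 0.25, so that each RA call below rests on that trend. The median of all probe sets tested was -0.20 here, and -0.06 after quantile normalization.

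Cyp26a1 averaged -2.25 ± 2.15 with vehicle, 4.04 ± 0.55 at 3 h, 6.42 ± 0.13 at 6 h, 4.04 ± 0.96 at 10 h and 0.61 ± 3.44 at 16 h, and rose by 6.03 ± 0.74 over all RA times (limma adjusted p = 4.71e-05), or 6.59 without vehicle replicate 2. Its supplemented levels of 4.28 and 5.24 lay within the span of the arrays at 3 to 10 h, which were scaled in the same way but run in another experiment. Cyp17a1 averaged 3.91 ± 0.78 with vehicle, 4.41 ± 0.24 at 3 h, 3.93 ± 0.81 at 6 h, 2.75 ± 0.42 at 10 h and 1.44 ± 0.49 at 16 h. Over all times its difference was -0.77 ± 0.29, or -1.05 without vehicle replicate 2, and it was not called (limma adjusted p = 0.502). The arrays at 16 h lay below all vehicle arrays, and above both supplemented livers.

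Genes that were not called between the diets were called after RA. Cyp2c22 rose by 4.11 ± 0.47 (limma adjusted p = 3.01e-05), or 5.59 without vehicle replicate 2. Cyp26b1 rose by 4.45 ± 0.62 (limma adjusted p = 0.000325), or 5.53 without it. Lrat rose by 3.63 ± 0.64 (limma adjusted p = 0.00635), or 5.26 without it. Without vehicle replicate 3 the difference for Lrat was 1.86 and was not called (limma adjusted p = 0.276). Sult1c3 rose by 3.94 ± 0.74 (limma adjusted p = 0.0124), or 5.73 without vehicle replicate 2, and was not called without vehicle replicate 1 (3.14, limma adjusted p = 0.0877) or 3 (2.96, limma adjusted p = 0.443). Cyp8b1 fell by 2.50 ± 0.30 (limma adjusted p = 4.5e-05), or by 3.19 without vehicle replicate 2, with averages of 6.05 ± 1.31 with vehicle, 5.21 ± 0.32 at 3 h, 3.88 ± 0.41 at 6 h, 0.74 ± 0.17 at 10 h and 4.39 ± 0.55 at 16 h. Dhrs3 rose by 0.96 ± 0.20 (limma adjusted p = 0.0261), or 1.17 without vehicle replicate 2, and was not called without vehicle replicate 1 (0.68, limma adjusted p = 0.124) or 3 (1.04, limma adjusted p = 0.14). Over all RA times Cyp3a9 (0.94 ± 0.33) and Rarb (0.76 ± 0.23) were not called (limma adjusted p = 0.454 and 0.27). Without vehicle replicate 2 they differed by 1.47 and 1.07 (limma adjusted p = 0.088 and 0.0814). After quantile normalization both were called (limma adjusted p = 0.0336 and 0.00351), and Rarb also with array weights (limma adjusted p = 0.0354). Rarb averaged 3.70 with vehicle, 5.475 at 3 h, 5.08 at 6 h, 4.11 at 10 h and 3.17 at 16 h. Its arrays at 3 and 6 h lay above all vehicle arrays, and the mean over RA times joins them with the lower later ones. The 1380012_at probe set of Ddx19b differed by -0.62 ± 0.92 (limma adjusted p = 0.868), or -0.51 without vehicle replicate 2. Whether the response to RA differed from that to the diet was not tested, since dose, time and vitamin A status all differed.

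**Figure D5:**
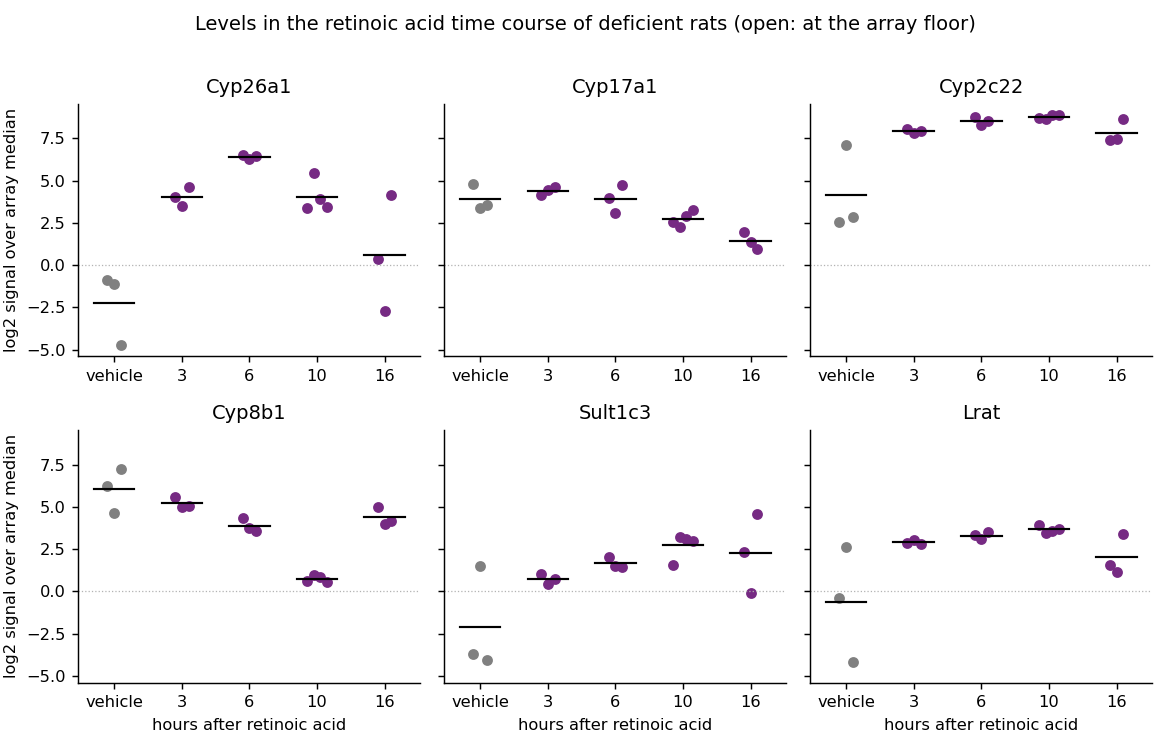
Each point is 1 liver of a vitamin A-deficient rat, with vehicle in grey and hours after RA in purple on the x axis and the log2 signal over the array median on the y axis; lines are group means. Cyp26a1 is highest at 6 h (mean 6.42), Cyp8b1 is lowest at 10 h (mean 0.74), Cyp17a1 is lowest at 16 h (mean 1.44), and 1 vehicle array stands apart for Cyp2c22, Lrat and Sult1c3.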

How the data were processed

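Liver RNA was measured on single-colour Affymetrix rat arrays. The deposited table holds log2 signal values made by the authors with GCOS, per the submitters' processing notes (version not given); the log2 base and a median of 0 on every array were read from the values, and nothing was rescaled. Of 31099 probe sets, 20832 had 1 gene in the platform annotation, 436 several and 9831 none; 57 controls were left out. A probe set was tested where at least 2 arrays of the experiment had it over their 40th percentile: 27595 for diets and 28869 for RA. Fits used limma 3.58.1 in R 4.3.3 (lmFit on group means, eBayes with an intensity trend), over all 20 diet arrays, which share 1 estimate of the spread, with the run, divided at identifier 78000, as a covariate; a fitted difference therefore need not equal the difference of group means. The RA fit used 16 arrays and no covariate. The diet fit had 15 residual degrees of freedom (prior 16.7) and the RA fit 11 (prior 18.4). A call is a Benjamini-Hochberg adjusted p under 0.05 over all probe sets tested. Errors of differences are SE, errors of group means SD, and intervals cover 95%.

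A gene was represented by its probe set with the highest mean over the diet arrays. Named genes were the called probe sets, the 15 largest rises and 15 largest falls among genes with unadjusted p under 0.01 and both supplemented arrays beyond all adequate arrays, a set of retinoid, lipid and bile acid genes, up to 4 members of each of 36 lists by smallest p, and called genes of the step comparison. The members and lists were chosen with earlier results of these data known. Replicate numbers were not taken as pairs in the main fits. The pipeline was tested on simulated data. Alternatives were quantile normalization, no filter, no trend, array weights, a replicate block, leaving out single arrays, no run covariate, the run as a random block, the first run alone, the 8 arrays alone, leaving out arrays that an earlier analysis set apart, and the mean over the probe sets of a gene. The intravenous RA experiment was not used here. Promoter sequences and coordinates are from RefSeq (GRCr8).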

Additional observations from a re-analysis of the deposited data

Results flagged for a closer look

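In 103 groups of values examined for a sample far from the others, 8 such values were found, and chance flags about 1 in 20 groups. Cyp26a1 was 1.26 on adequate replicate 1, above the 0.08 to 0.41 of the other adequate livers. Cd36, a fatty acid transporter gene, was 1.88 on adequate replicate 5, below the other adequate livers at 3.42 to 4.04, and the same array had the far 3′ to 5′ differences of GAPDH (1.37, against 0.30 to 0.47) and actin (3.16, against 1.25 to 1.90). Inhbe was 2.87 on adequate replicate 4, below the others at 3.61 to 3.92. Outside the 2 diets compared, Sult1c3 was -3.82 on deficient replicate 5 (others -0.33 to 0.82), Cyp8b1 was 7.32 on deficient replicate 3 (others 6.58 to 6.75), and Sult1c3 was 1.57 on replicate 1 of RA 10 h (others 3.00 to 3.21). The cause of these values was not tested.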

How the results depend on the processing

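The count of 3 called probe sets between supplemented and adequate livers became 10 with array weights, 1 in the first run without adequate replicate 5, 1 with the 8 arrays alone, and 3 to 14 with each array left out (14 without supplemented replicate 1, 10 without supplemented replicate 2). With the replicate block it was 0. Deviations from the group mean correlated at 0.03 and -0.003 between supplemented and adequate arrays of the same number. These values can neither show nor exclude pairing. The deviations of 2 supplemented arrays mirror each other, and adequate replicates 1 and 2 lie in the second run. Under the block Cyp26a1 was 3.96, Cyp17a1 -4.04 and Ddx19b -4.94, none of them called (limma adjusted p = 1, 0.607 and 0.647). Cyp17a1 was also not called without a trend (limma adjusted p = 0.0847) or with the 8 arrays alone (-4.23, limma adjusted p = 0.137), nor was Ddx19b without the arrays set apart earlier (-3.96, limma adjusted p = 0.0674). The step comparison, with 1 call, gave 6 with array weights, 2 with the mean over probe sets, 3 after quantile normalization, and 0 in the first run, with no run covariate, with a random block, with the replicate block or without the arrays set apart, and 0 to 4 with each array left out. Without a trend the count stayed at 1, with Cyp2c22 no longer called. Cyp3a9 was called in that comparison with array weights (-2.31, limma adjusted p = 0.022). The median step over all probe sets was -0.13, or -0.03 after quantile normalization. The RA comparison, with 49 calls, gave 1216 with array weights, 0 without a trend (1747 at an unadjusted p under 0.05), 13 with the mean over probe sets and 136 after quantile normalization, 37 with the replicate block, and 14 (without vehicle replicate 3) to 216 (without RA 16 h replicate 3) with each array left out. Of 2001 values of named genes under alternatives, 1918 kept direction and side of the threshold. Most of these genes were uncalled and far from the threshold, so that count says little about the called ones. Of 21 alternatives for supplemented minus adequate, Cyp26a1 was called in 19, Cyp17a1 in 16 and Ddx19b in 13. Cdkn3 was called with array weights (-3.35, limma adjusted p = 0.0371), Fgf21 without supplemented replicate 1 (-4.05, limma adjusted p = 0.0115) and Ubd without supplemented replicate 2. Some uncalled genes changed sign. Cyp2c7 was 0.13 after quantile normalization, 0.14 with the block and 0.017 without the arrays set apart, where Cyp2a2 was 0.089. In the first run Cyp7a1 was 0.065 (also with its supplemented and adequate arrays alone), and without adequate replicate 5 too Cyp2a2 was 0.27 and Fasn 0.033. With the block Fasn was 1.25, Cyp7a1 0.82, RT1-Ba 0.33, Hsp90b1 0.033, Plin2 0.043, Esrra -0.54 and Acsm5 -0.32, Dcn was 0.66 and Lrat 0.067, and with the mean over probe sets Eci1 was 0.68 and Polr2i 0.11. Leaving out 1 array in turn gave ranges across 0 of -2.53 to 1.54 for Cyp2a2, -2.38 to 0.13 for Abcg5, -0.34 to 0.064 for Fasn, -0.048 to 0.61 for Scd, -0.40 to 0.38 for Cyp7a1, -0.098 to 0.49 for Nr1h4, -4.48 to 0.39 for Ubd and -0.82 to 0.15 for the step difference of Cyp17a1, which was 1.27 in the first run. The cause of these changes was not tested.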
